A study of Culex quinquefasciatus and Culex pipiens molestus with 2 samples.

Results

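The cuticle proteins of mosquito females were compared between 2 house mosquitoes by RNA sequencing. The molestus group was a pool of 30 females of a laboratory strain of Culex pipiens molestus, and the quinquefasciatus group was a pool of 30 females of a laboratory strain of Culex pipiens quinquefasciatus. Each taxon had 1 library of polyadenylated RNA, so taxon and library cannot be told apart, and no difference below has a replicate check or a p-value. The sources used here do not give the females' age, whether they had fed, or the body parts used. The tables were assigned to the taxa by their abbreviations, Cxm for molestus and Cxq for quinquefasciatus, since no label ties a table to a taxon. The members are the transcript models whose product description contains "cuticle protein" or "cuticular". They numbered 79 of the 16198 models listed in at least 1 library, of which 13 had adult in their name, 9 larval, 6 pupal and 5 larval/pupal, while 46 named no stage. Membership rests on the descriptions alone.

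The insect cuticle is a layer of chitin fibres embedded in proteins, laid down by the epidermis and renewed at each moult. Cuticle proteins form large families, often encoded side by side in the genome, and most are secreted around a moult or in the first days of adult life, when the inner layers of the adult cuticle are added. Different sets serve the soft larval, the pupal and the adult cuticle, but the stage in a model's name is taken from a similar protein of another insect. LCP-30 was named in the silkworm Bombyx mori, H1C, A2B, ACP-20 and ACP-22 in the mealworm Tenebrio molitor, pupal cuticle protein 36 and CP14.6 in the hornworm Manduca sexta, flexible cuticle protein 12 in the moth Hyalophora cecropia, and cuticle proteins 16.5 and 19.8 in the locust Locusta migratoria. A stage word below is therefore part of a name and not a measured stage.

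The molestus library held 9.79 M and the quinquefasciatus library 10.2 M uniquely assigned reads, a depth ratio of 1.04. Levels are in RPKM, which scales reads by the length of the model and by the depth of the library. Ratios are log2 of (RPKM + 1) in the molestus library over the quinquefasciatus library, and are given for models that reached 1 RPKM in either library. Adding 1 makes the ratios of low models too small. Folds of single models and of summed reads are without pseudocount, with an exact 95% interval from the counts that covers counting error only. Over the 12789 models compared the median ratio was 0.18, and rescaling shifted every ratio by about -0.30 (median ratio) or -0.21 (trimmed mean of M-values, TMM) at high levels. Among all these models, 2914 were at least 2-fold higher in molestus and 2303 in quinquefasciatus, counts that became 2002 and 2942 with the median ratio and 2272 and 2743 with TMM.

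Most cuticle protein models were near or below the limit of detection in both libraries. Taking 3 reads as detected, 31 of the 79 models (39.2%) were detected in molestus and 42 (53.2%) in quinquefasciatus. Over all listed models the shares were 82.7% in molestus and 87.0% in quinquefasciatus. Both libraries detected 23 of the cuticle models and neither detected 29. The molestus library alone detected 8 (10.1%, against 4.15% of all models), and the quinquefasciatus library alone detected 19 (24.1%, against 8.44% of all models). The cuticle models were short, with a median length of 606 bases against 1137 bases over all models. For a model of 606 bases, 3 reads correspond to 0.506 RPKM in molestus and 0.487 RPKM in quinquefasciatus, so lower levels could not be called present or absent. Only 6 cuticle models (7.59%) reached 10 RPKM in molestus and 7 (8.86%) in quinquefasciatus, where 44.0% and 41.8% of all models did. At 0 reads were 24 of the 79 in molestus and 16 in quinquefasciatus.

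**Figure D1:**
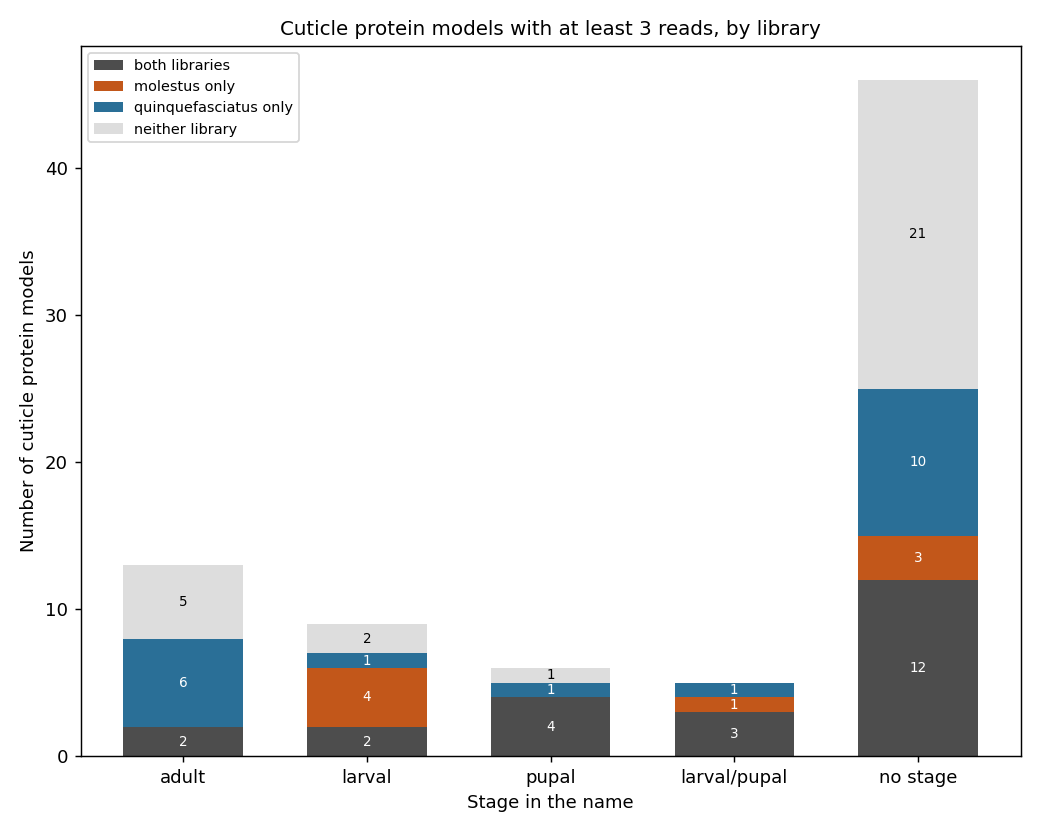
Number of cuticle protein models with at least 3 reads in both libraries, in the molestus library alone, in the quinquefasciatus library alone or in neither, stacked by the stage in the model's name (1 library per taxon). Of the 13 adult names, 6 were detected in quinquefasciatus alone and 0 in molestus alone, while of the 9 larval names 4 were detected in molestus alone and 1 in quinquefasciatus alone. Over all listed models 8.44% were detected in quinquefasciatus alone and 4.15% in molestus alone. These 6 adult names held 4 to 21 reads each in quinquefasciatus, and the 4 larval names held 4 to 7 reads each in molestus.

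The summed cuticle reads were lower in the molestus library. All 79 models together held 1673 reads, 0.0171% (0.0163 to 0.0179) of the molestus library, and 6294 reads, 0.0619% (0.0604 to 0.0635) of the quinquefasciatus library, a sum 3.62-fold lower in molestus (3.43 to 3.82). This sum rested on few models. Without the 8 models of highest mean level the sums were 352 reads in molestus and 608 in quinquefasciatus, 1.66-fold lower in molestus (1.46 to 1.90). Without the most abundant model alone the sum was 3.21-fold lower in molestus (3.03 to 3.40). The 5 models with most reads held 72.6% of the cuticle reads in molestus and 81.4% in quinquefasciatus, and 6 of the 8 with most reads were shared by both libraries. In pooled females, fewer epidermal cells and less of a transcript per cell cannot be told apart.

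Of the 31 cuticle models compared, 4 (12.9%) were at least 2-fold higher in molestus, against 22.8% of all compared models, and 15 (48.4%) were at least 2-fold higher in quinquefasciatus, against 18.0% of all compared models. The other 12 lay within 2-fold. Their median ratio was -0.88, with quartiles of -1.72 and -0.34, and it was -1.02 under either rescaling. Of these 31 models 4 reached 1 RPKM in molestus alone and 10 in quinquefasciatus alone, so a difference was built into their selection. Of the 17 models that reached 1 RPKM in each library, 1 was at least 2-fold higher in molestus and 7 in quinquefasciatus, with a median of -0.76. The background under that condition was 23.3% higher in molestus and 13.9% higher in quinquefasciatus, with a median of 0.27. Counted over all 79 models, 4 had a fold whose interval placed them higher in molestus (5.06%, against 35.7% of all listed models), and 19 had one that placed them higher in quinquefasciatus (24.1%, against 27.6%). The share higher in quinquefasciatus was close to the background, and the share higher in molestus was below it, but these shares depend on read counts. The median cuticle model had 2 reads in molestus and 3 in quinquefasciatus, against 67.5 and 74.0 over all models. At such counts few folds can be placed on either side, so the shares and their background are not on equal terms. For 56 of the 79 the interval included equality, most of them with a handful of reads.

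**Figure D2:**
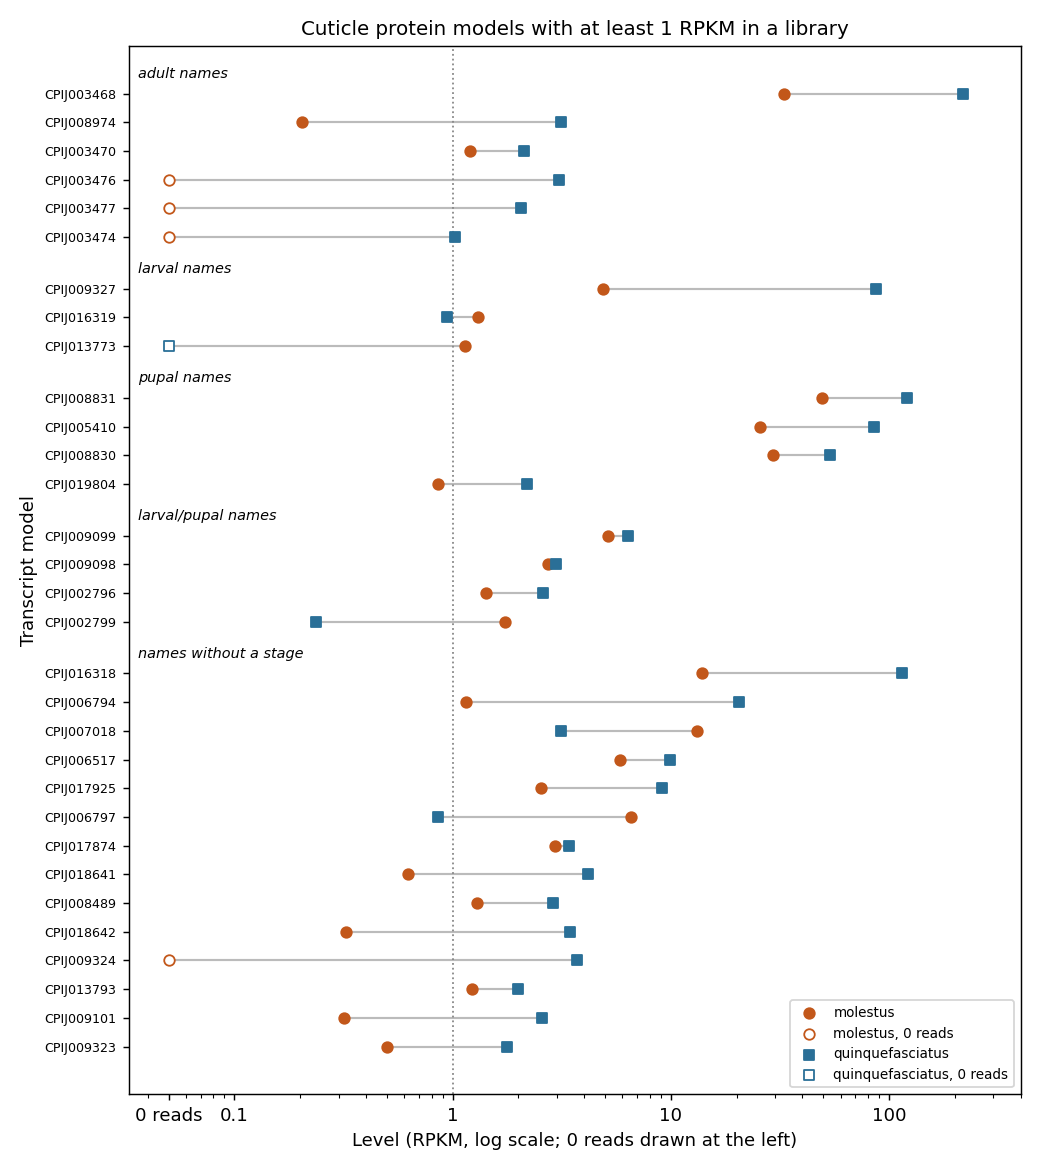
Level in RPKM on a log axis for the 31 cuticle protein models that reached 1 RPKM in either library, as circles for molestus and squares for quinquefasciatus (1 library each); open symbols at the left edge mark 0 reads, and the dotted line marks 1 RPKM. The 3 abundant pupal names, CPIJ008831, CPIJ005410 and CPIJ008830, are above 20 RPKM in both libraries. The wide gaps belong to models that are higher in quinquefasciatus, except for CPIJ007018, CPIJ006797, CPIJ002799 and CPIJ013773. A gap that ends in an open symbol has a width set by where 0 reads are drawn. Among these, CPIJ003474 and CPIJ013773 had intervals of the fold that included equality.

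Adult names were carried by 13 models, of which 2 were detected in molestus and 8 in quinquefasciatus. Their reads summed to 213 in molestus and 1473 in quinquefasciatus, 6.66-fold lower in molestus (5.76 to 7.72). Nearly all of these came from 1 model. Adult cuticle protein 1 (CPIJ003468) was the most abundant cuticle transcript of the quinquefasciatus library, with 203 reads (33.1 RPKM) in molestus and 1394 reads (219 RPKM) in quinquefasciatus, 6.61-fold lower in molestus (5.70 to 7.70). Reads covered 97.9% of its length in molestus and 99.8% in quinquefasciatus, so the whole model was sampled in both.

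The other 10 models named adult cuticle protein 1 were low, with 9 reads in all in molestus and 59 in quinquefasciatus. Of these CPIJ003476 had 0 reads in molestus and 21 in quinquefasciatus, at least 6.74-fold lower in molestus against a floor of 3 reads, while the exact interval of the fold starts at 5.01. CPIJ003477 had 0 reads in molestus and 14 in quinquefasciatus, at least 4.49-fold lower on the same floor, with an interval from 3.19. Both are 673 bases long, but their sequences were not compared. Reads shared by near-identical copies would be lost from a count of unique reads. Whether this affected their single values was not tested, so these remain uncertain. CPIJ003470 was detected in both, with 6 reads in molestus and 11 in quinquefasciatus, and its interval included equality (1.77-fold lower in molestus, 0.598 to 5.81). CPIJ003487 and CPIJ003488 had 1 and 2 reads in molestus and 0 in quinquefasciatus, below detection in both.

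The pair named after adult-specific mealworm proteins had few reads. ACP-22 (CPIJ008974) had 1 read in molestus and 16 in quinquefasciatus, 15.4-fold lower in molestus with a wide interval (2.39 to 646). ACP-20 (CPIJ013174), which the naming rule did not cover, had 0 reads in molestus and 4 in quinquefasciatus, and its interval included equality. The 6 adult-named models compared had a median ratio of -1.69, but 4 of them reached 1 RPKM in quinquefasciatus alone, so that their direction followed from their selection. Only CPIJ003468 and CPIJ003470 reached it in each library, and the interval of CPIJ003470 included equality. Over all 13 without a minimum level the median was -0.82. With the 3 of them at 0 reads in molestus set to the floor, the median was -1.27.

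Larval names were the one class in which more models were detected in molestus, 6 of 9, than in quinquefasciatus, 3 of 9. Counts were low apart from 1 model. Their reads summed to 72 in molestus and 844 in quinquefasciatus, 11.3-fold lower in molestus (8.86 to 14.6), of which LCP-30 (CPIJ009327) held 45 and 836. Its level was 4.89 RPKM in molestus and 87.4 RPKM in quinquefasciatus, 17.9-fold lower in molestus (13.2 to 24.7), the lowest ratio of all compared cuticle models at -3.91. Coverage of its length was 78.8% in molestus and 98.3% in quinquefasciatus.

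The other 2 models named LCP-30 had reads in molestus alone. CPIJ009329 had 7 reads (0.946 RPKM) in molestus and 0 in quinquefasciatus, at least 2.42-fold higher in molestus against the floor, with an exact interval that reaches below this bound but not to equality. CPIJ009330, which the naming rule did not cover, had 5 reads in molestus and 0 in quinquefasciatus, and the interval of its fold included equality. The A2B models CPIJ013773 and CPIJ013780 had 5 and 4 reads in molestus and 0 in quinquefasciatus, while the third A2B model, CPIJ013770, had 0 in molestus and 2 in quinquefasciatus. Larval cuticle protein 8 (CPIJ016319) was near the limit in both, with 4 reads in molestus and 3 in quinquefasciatus. The 4 larval-named models detected in molestus alone thus held 4 to 7 reads each. Only 3 larval-named models were compared, with a median ratio of 0.25 and a mean of -0.85, so the median and the mean differed in sign. CPIJ013773 and CPIJ016319 reached 1 RPKM in molestus alone, so their direction, and with it the sign of the median, followed from their selection. The 1 model that reached it in each library, CPIJ009327, had a ratio of -3.91.

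Pupal names included the most abundant cuticle transcripts of the molestus library. A pupal cuticle protein (CPIJ008831) was its highest, with 411 reads (49.2 RPKM) in molestus and 1052 reads (121 RPKM) in quinquefasciatus, 2.46-fold lower in molestus (2.20 to 2.77). Pupal cuticle protein 36 (CPIJ005410) had 389 reads (25.5 RPKM) in molestus and 1354 reads (85.5 RPKM) in quinquefasciatus, 3.35-fold lower in molestus (2.99 to 3.76). The neighbouring identifier CPIJ008830 had 153 reads (29.4 RPKM) in molestus and 289 reads (53.5 RPKM) in quinquefasciatus, 1.82-fold lower in molestus (1.49 to 2.23). These transcripts of pupal name were thus present in both pools of females, and all were lower in molestus.

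The other 3 pupal names were at the limit. CPIJ019804 had 3 reads in molestus and 8 in quinquefasciatus, and C1B (CPIJ004475) had 2 and 3. G1A (CPIJ002802) had 1 read in molestus and 0 in quinquefasciatus. Over the 6 pupal names the reads summed to 959 in molestus and 2706 in quinquefasciatus, 2.72-fold lower in molestus (2.52 to 2.93), and the median ratio of the 4 compared was -1.06.

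The 5 larval/pupal names, all H1C, showed no such difference in their sum. They held 71 reads in molestus and 86 in quinquefasciatus, 1.17-fold lower in molestus with an interval that included equality (0.842 to 1.62). CPIJ009099 had 5.17 RPKM in molestus and 6.37 RPKM in quinquefasciatus, 1.23-fold lower in molestus (0.758 to 2.02). CPIJ009098 had 2.72 RPKM in molestus and 2.96 RPKM in quinquefasciatus, 1.09-fold lower in molestus (0.513 to 2.35). Both intervals include equality and also the 1.82-fold of the pupal name CPIJ008830. CPIJ002799 had 14 reads in molestus and 2 in quinquefasciatus, 7.27-fold higher in molestus (1.67 to 65.9). CPIJ002796 had 10 reads in molestus and 19 in quinquefasciatus (1.83-fold lower in molestus, 0.809 to 4.40), and CPIJ002798 had 0 and 7. The direction thus differed between models of the same name.

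Among the 46 names without a stage, 15 were detected in molestus and 22 in quinquefasciatus, and their reads summed to 358 in molestus and 1185 in quinquefasciatus, 3.19-fold lower in molestus (2.83 to 3.60). Flexible cuticle protein 12 (CPIJ016318), named after a protein of soft cuticle, had 57 reads (13.9 RPKM) in molestus and 490 reads (115 RPKM) in quinquefasciatus, 8.28-fold lower in molestus (6.28 to 11.1). The other 3 models of that name had at most 3 reads in either library. A model described only as cuticle protein (CPIJ006794) had 14 reads (1.15 RPKM) in molestus and 259 reads (20.5 RPKM) in quinquefasciatus, 17.8-fold lower in molestus (10.4 to 33.0). CPIJ009324 had 0 reads in molestus and 15 in quinquefasciatus, at least 4.81-fold lower in molestus against the floor, with an interval from 3.45. Cuticle protein 16.5 (CPIJ006517) had 50 reads in molestus and 88 in quinquefasciatus, 1.69-fold lower in molestus (1.18 to 2.45).

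The exceptions with more than a few reads were a pair. CP14.6 (CPIJ007018) had 49 reads (13.2 RPKM) in molestus and 12 reads (3.12 RPKM) in quinquefasciatus, 4.24-fold higher in molestus (2.22 to 8.76). A model described only as cuticle protein (CPIJ006797), chosen after its values were seen, had 59 reads (6.53 RPKM) in molestus and 8 reads (0.853 RPKM) in quinquefasciatus, 7.66-fold higher in molestus (3.64 to 18.6). Its 59 molestus reads covered only 36.4% of its length, whereas the 49 reads of CP14.6 covered 98.4% of a shorter model. Of the 7 models named cuticle protein 19.8, 1 was detected in molestus and 3 in quinquefasciatus, with 10 reads in all in molestus and 59 in quinquefasciatus. CPIJ018641 had 4 reads in molestus and 28 in quinquefasciatus, 6.74-fold lower in molestus (2.36 to 26.4), and CPIJ018642 had 2 and 22, a ratio of 10.6 (2.60 to 92.9) on the same side. These 2 models held most of the reads of that name, and the intervals of the other 5 included equality.

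The remaining 6 compared models without a stage, like CPIJ018641 and CPIJ018642, were chosen after their values were seen, and each had fewer reads in molestus. CPIJ017925 had 14 reads (2.55 RPKM) in molestus and 52 reads (9.12 RPKM) in quinquefasciatus, 3.58-fold lower in molestus (1.95 to 6.99). Cuticle protein 12.5 (CPIJ009101) had 3 reads in molestus and 25 in quinquefasciatus, a ratio of 8.02 lower in molestus (2.45 to 41.5). CPIJ008489 had 22 reads in molestus and 51 in quinquefasciatus, 2.23-fold lower in molestus (1.33 to 3.86), and CPIJ009323 had 6 and 22, 3.53-fold lower (1.39 to 10.6). These 4 differed beyond counting error. CPIJ013793, with 19 reads in molestus and 32 in quinquefasciatus, and CPIJ017874, with 19 and 23, had intervals that included equality.

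**Figure D3:**
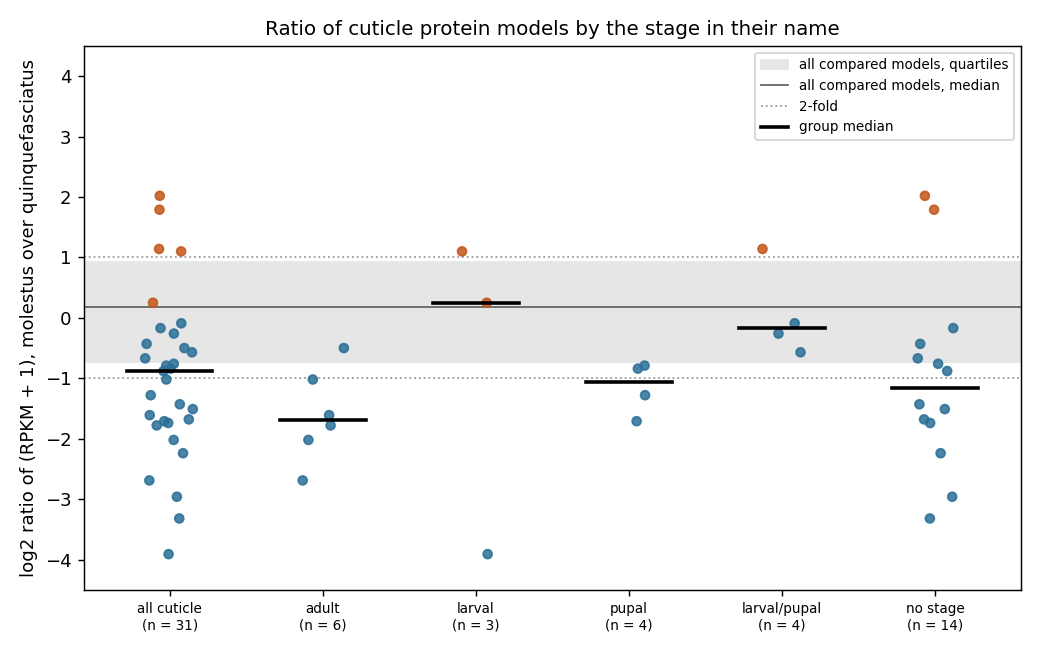
Log2 ratio of (RPKM + 1), molestus over quinquefasciatus, for each of the 31 compared cuticle protein models, by the stage in the name; points above 0 are orange and points below 0 are blue, bars are group medians, the grey band and thin line give the quartiles and the median of all 12789 compared models, and dotted lines mark 2-fold. All points of the adult and pupal names lie below 0, and the lowest point of the figure is the larval name CPIJ009327 at -3.91.

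Identifiers of the members fell into runs. With members no more than 10 numbers apart counted as a run, 6 runs of at least 4 members held 43 of the 79 models. Whether neighbouring numbers are neighbouring genes was not looked up, since the reference table at hand holds none of these identifiers. The run from CPIJ003468 to CPIJ003488 held 10 models of adult cuticle protein 1, of which 2 were detected in molestus and 6 in quinquefasciatus. The run from CPIJ013761 to CPIJ013795, with 13 models the longest, held only 40 reads in molestus and 53 in quinquefasciatus. In the run from CPIJ009316 to CPIJ009330, 4 of 6 models were detected in molestus and 3 in quinquefasciatus, with LCP-30 (CPIJ009327) the one abundant model. In each of these runs 1 model or none reached 10 RPKM in either library.

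Other genes of the cuticle pathway were taken from 7 lists of text patterns. Their counts stand against the shares of all compared models given above, 22.8% at least 2-fold higher in molestus and 18.0% in quinquefasciatus, or 23.3% and 13.9% where each library had to reach 1 RPKM. As for the cuticle proteins, a model that reached 1 RPKM in one library alone had its direction set by its selection. Further structural names, such as endocuticle structural glycoprotein, a family of the inner cuticle named in the desert locust, gave 30 models, of which 17 were compared. Among them 2 were higher in molestus by at least 2-fold and 8 in quinquefasciatus, with a median ratio of -0.92. Over the 10 that reached 1 RPKM in each library, 1 and 4 were, and the median was -0.31. ABD-4 (CPIJ009331) was the most abundant, at 87.8 RPKM in molestus and 128 RPKM in quinquefasciatus, 1.45-fold lower in molestus (1.27 to 1.67). SgAbd-2 (CPIJ009321) had 13.1 RPKM in molestus and 60.3 RPKM in quinquefasciatus, 4.60-fold lower in molestus (3.73 to 5.72). A model described as cuticle collagen 2C (CPIJ001315), a name from nematode cuticle, was 2.43-fold higher in molestus (2.06 to 2.88). With these names included, the summed cuticle reads were 2.58-fold lower in molestus, an alternative chosen after seeing the data.

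Genes of chitin synthesis were measured by 9 compared models, of which 0 were at least 2-fold higher in molestus and 3 in quinquefasciatus, with a median of -0.93. Over the 8 that reached 1 RPKM in each library the counts were 0 and 2 and the median -0.44. The most abundant, glucosamine 6-phosphate N-acetyltransferase (CPIJ009417), had 93.6 RPKM in molestus and 90.3 RPKM in quinquefasciatus, with an interval that included equality (1.04-fold, 0.942 to 1.14). Chitin synthase (CPIJ014269), which polymerises chitin, had 12.7 RPKM in molestus and 61.1 RPKM in quinquefasciatus, 4.81-fold lower in molestus (4.06 to 5.72). N-acetylglucosamine-6-phosphate deacetylase (CPIJ009741), which the text pattern took in, was 1.62-fold higher in molestus (1.28 to 2.04). Chitinases, which digest chitin at the moult and in the gut, had 15 compared models with a median of -0.81, 2 at least 2-fold higher in molestus and 6 in quinquefasciatus. Over the 11 of them at 1 RPKM in each library the counts were 2 and 3 and the median -0.27. The most abundant chitinase (CPIJ002602) had 111 RPKM in molestus and 134 RPKM in quinquefasciatus, 1.21-fold lower in molestus (1.13 to 1.30). The acidic mammalian chitinase model (CPIJ000009) was 9.42-fold lower in molestus (6.37 to 14.4) and an endochitinase (CPIJ013084) 3.02-fold higher (2.40 to 3.84).

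Tanning genes, whose products harden and darken the cuticle, went both ways, with 5 of 16 compared models at least 2-fold higher in molestus and 5 in quinquefasciatus. Tyrosine 3-monooxygenase (CPIJ014156), which makes dopa from tyrosine, had 1490 RPKM in molestus and 403 RPKM in quinquefasciatus, 3.69-fold higher in molestus (3.60 to 3.79). Aromatic-L-amino-acid decarboxylase, which makes dopamine from dopa, split: CPIJ013307 was 2.90-fold higher in molestus (2.66 to 3.17) and CPIJ010562 7.87-fold lower (7.03 to 8.83). The 7 yellow proteins, linked to pigmentation in Drosophila, had a median of 0.94, and CPIJ011423 was 4.22-fold higher in molestus (3.83 to 4.66). These enzymes also serve eggshell hardening, melanin and the nervous system. The median of the tanning list was -0.28, and 0.91 over the 12 models that reached 1 RPKM in each library, 5 of them at least 2-fold higher in molestus and 3 in quinquefasciatus.

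Genes of the moulting hormone response had 21 compared models, 6 at least 2-fold higher in molestus and 1 in quinquefasciatus. Their median was 0.07, which rescaling turned to -0.16 (median ratio) or -0.09 (TMM), and it was 0.06 over the 17 at 1 RPKM in each library, with 4 and 1 past 2-fold. The ecdysone receptor (CPIJ002963), which binds the moulting hormone, was 2.78-fold higher in molestus (2.36 to 3.29). Bursicon (CPIJ009600) and its partner (CPIJ012985), the subunits of the hormone of cuticle hardening, are named after their values were seen. Bursicon had 1 read in molestus and 0 in quinquefasciatus, and its partner had 1 read in molestus and 6 in quinquefasciatus. Enzymes of surface hydrocarbons had 39 compared models, 1 at least 2-fold higher in molestus and 13 in quinquefasciatus, with a median of -0.81. Over the 32 of them at 1 RPKM in each library the counts were 1 and 8 and the median -0.22. Their pattern also took in sterol and dihydroceramide desaturases. An acyl-CoA delta(11) desaturase (CPIJ013748) was the most abundant, at 617 RPKM in molestus and 1167 RPKM in quinquefasciatus, 1.89-fold lower in molestus (1.85 to 1.93). Next by mean level were models named elongation of very long chain fatty acids protein. CPIJ019159 was 2.93-fold (2.49 to 3.47) and CPIJ003007 1.91-fold (1.67 to 2.18) higher in molestus. The 18 models of that name summed to 1.38-fold more reads in molestus (1.28 to 1.49), but the median ratio of the 14 compared was -0.54. A sterol desaturase (CPIJ011630) was 11.7-fold lower in molestus (6.35 to 24.1). Larval storage proteins, known in other insects to be used up around metamorphosis, held 72 reads in molestus and 181 in quinquefasciatus over 15 models, 2.42-fold lower in molestus (1.83 to 3.23). These values stand beside the cuticle result, and whether the age of the females had a part in it was not tested.

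**Figure D4:**
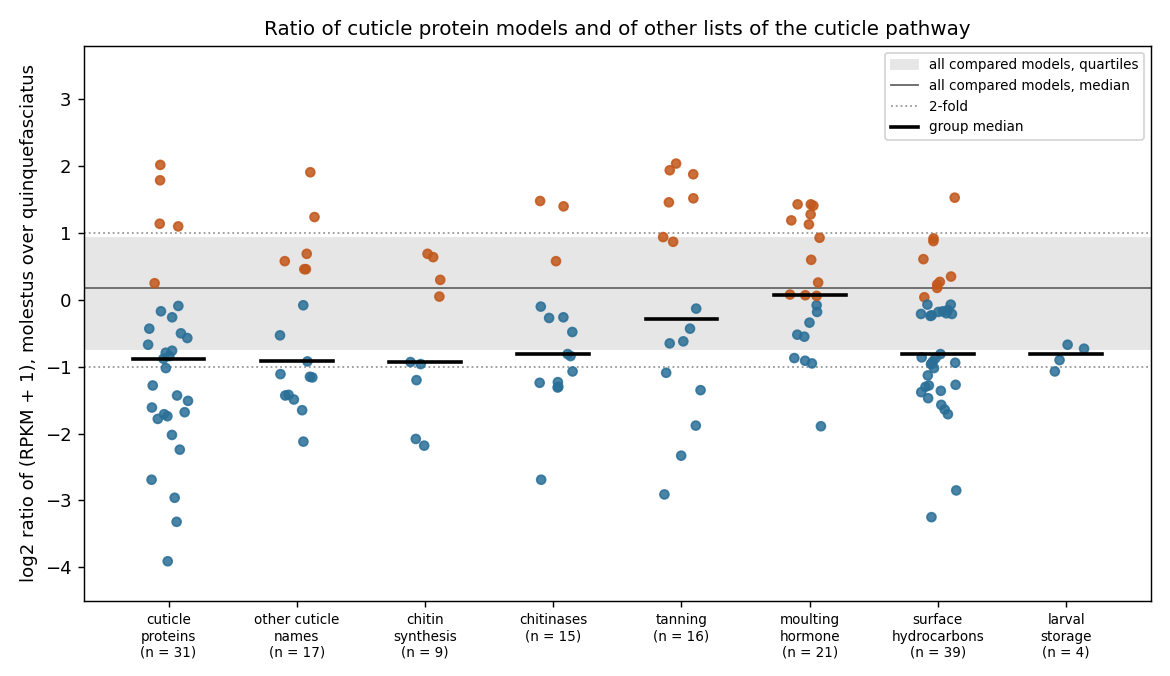
Log2 ratio of (RPKM + 1), molestus over quinquefasciatus, for the compared models of the cuticle proteins and of 7 other lists of the cuticle pathway, with points above 0 in orange and below 0 in blue, bars at list medians, and the quartiles and median of all 12789 compared models in grey. The medians of the cuticle proteins, other cuticle names, chitin synthesis, chitinases, surface hydrocarbons and larval storage proteins lie between -0.93 and -0.81 as plotted, but where each library had to reach 1 RPKM they are -0.76 for the cuticle proteins and between -0.44 and -0.22 for the next 4, with no larval storage model left. The tanning and moulting hormone lists spread to both sides.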

How the data were processed

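Females were pooled per taxon, RNA was extracted with TRIzol, and non-directional libraries were made, per the labels' protocols. Each deposited table lists transcript models with the authors' count of unique reads, an RPKM and the percent of the model covered by reads, per the file headers. For the aligner, genome build, counting tool and filters, the entry is: not given in the sources used here. Both libraries were counted on models with the same identifiers. Whether reads of both taxa were assigned to these models equally well was not tested. Listed counts summed to the total in each header, RPKM recomputed from them within rounding, and models listed in 1 table only were taken as 0 reads in the other. Strand was not kept, so antisense genes cannot be told apart. Log2 ratios were computed here from the deposited values. Intervals cover counting error only, since PCR duplicates could not be recognised.

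Ratios used the deposited RPKM plus a pseudocount of 1. Intervals of folds and shares are exact (Clopper-Pearson, 95%). A count test needs replicates and was not run. A fold against 0 reads is a lower bound at 3 reads. Named members were the 8 with the highest mean RPKM, up to 6 with the largest ratio each way at 10 RPKM and 50 reads, up to 4 per name class, and those with 10 or more reads in 1 library and 0 in the other. Any other member named in the text was chosen after its values were seen. Named pathway genes were taken from the most abundant and those with the largest ratios of each list, and not all of these are given in the text. The members and lists were chosen with earlier results of these data known. The planned protein features were not computed, as no protein table was at hand. Python 3.11.15, numpy 2.4.6, pandas 2.3.3, scipy 1.17.1, matplotlib 3.10.9 and edgeR 4.0.16 (TMM factors of 1.07 for molestus and 0.931 for quinquefasciatus) in R 4.3.3 were used. The procedure was tested on simulated counts with counting error only. Folds were set only in models with at least 50 expected reads and 10 RPKM, levels that few members reached.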

Additional observations from a re-analysis of the deposited data

How the results depend on the processing

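With 1 library per taxon no replicate could be left out. No paired analysis was possible because each taxon has 1 library. Most members had few reads: at 1 read 55 models were detected in molestus and 63 in quinquefasciatus, and at 10 reads 18 and 25. The main counts of cuticle models at least 2-fold higher were 4 in molestus and 15 in quinquefasciatus. They became 0 and 6 at a pseudocount of 10, 1 and 6 at a minimum of 10 RPKM, and 1 and 6 at a 4-fold threshold. Rescaling by the median ratio gave 2 and 16, TMM 3 and 16. The wider pattern of names, added after seeing the data, gave 6 and 23.

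The median ratio of the cuticle models, -0.88, was -1.30 at a pseudocount of 0.1, -0.27 at 10, -0.31 with no filter, -2.20 at a minimum of 10 RPKM and -1.02 under both rescalings. It was below 0 under every setting run, but not every setting could have changed its sign. A pseudocount keeps the sign of each ratio, and both rescalings lower the molestus levels, so these could not turn it above 0. The adult names, -1.69, gave -3.45 at a pseudocount of 0.1, -0.32 at 10, -0.82 with no filter, -2.69 at a minimum of 10 RPKM (1 model) and -1.27 with 0 reads at the floor. The larval names, 0.25 over 3 models, gave 0.43 at 0.1, 0.05 at 10, 0.09 rescaled by the median ratio, 0.13 with TMM, and turned to -3.91 at a minimum of 10 RPKM, where 1 model is left. The pupal names, -1.06, gave -1.28 at 0.1, -0.92 at 10, -0.81 with no filter, -1.28 at a minimum of 10 RPKM, -1.35 with the median ratio and -1.26 with TMM. Over all models, the counts of 2914 higher in molestus and 2303 in quinquefasciatus became 1326 and 618 at a pseudocount of 10, 2331 and 1139 at a minimum of 10 RPKM, 615 and 508 at 4-fold, 2002 and 2942 with the median ratio, and 2272 and 2743 with TMM. None of the 22 named members changed sign under the rescalings or the floor, but little could have changed it. A pseudocount cannot change the sign of a ratio, nor can a rescaling where 1 library has 0 reads. The floor of 3 reads cannot change it where the other library holds more reads than that.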
